A study of Drosophila melanogaster with 8 samples.

Results

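The redox defence genes described here are Sod1, Sod2, Sod3, Cat, Trx-2, Jafrac1, Keap1 and cnc, taken by gene name as a set of superoxide, peroxide and thioredoxin enzymes with their regulators. Of these 8 genes, 6 had at least 1 probe set carrying that gene symbol alone, out of 11983 such genes on the array. Together they had 8 probe sets, of which 7 were bright enough to be tested. Sod1 and Jafrac1 matched no such probe set by symbol, older name or gene identifier and were not analysed here.

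Transcript levels were measured in heads of adult male and female Drosophila melanogaster on 8 single-colour Affymetrix arrays, 2 in each of 4 groups. Control flies were W1118, with neither driver nor transgene. The other groups carried the heat-shock driver Hsp-GAL4 and a transgene for Eyes absent (EYA) under UAS control. It was UAS-EYA-wildtype in the first such group, UAS-EYA-D493N in another and UAS-EYA-E728Q in the last. EYA is a transcriptional coactivator that is also a phosphatase, and per the series design the D493N mutation reduces phosphatase activity while E728Q leaves little if any. All groups, control included, spent 1 h at 37 C and 3 h at 25 C before RNA was taken from 200 heads, in 4 lots of 50. Driver, transgene and strain differ together between control and EYA flies and cannot be told apart. Whether replicates came from separate cultures is not stated in the labels, and p-values therefore reflect only the spread between these samples, which may be technical.

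Superoxide dismutases turn superoxide into hydrogen peroxide, in the cytosol (Sod1), in mitochondria (Sod2) or outside the cell (Sod3). Catalase (Cat) and peroxiredoxins such as Jafrac1 remove the peroxide, and peroxiredoxins draw electrons from thioredoxins such as Trx-2. The long form of the protein encoded by cnc, CncC, is the fly counterpart of the mammalian factor Nrf2. It activates antioxidant and detoxification genes when its inhibitor Keap1 lets it go.

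On the deposited scale the median signal of each array was 100. The trimmed mean signal, taken between the percentiles 2 and 98, ranged from 591 to 658, and arrays were quantile normalized for the tests. The correlation between replicates over the 11261 tested probe sets was lowest for D493N (r = 0.981) and highest for wild-type EYA (0.991), and replicates differed most for D493N (SD of their log2 difference 0.39, against 0.27 to 0.32 in the other groups). For the translation factor gene eIF-4a the 3' signal over the 5' signal, which bears on RNA integrity, was 2.51 and 2.73 on the control arrays and 2.80 to 4.05 on the EYA arrays, with D493N replicate 2 highest. The same ratio overlapped between control and EYA arrays for actin (1.58 and 1.72 against 1.62 to 2.07) and GAPDH (1.72 and 1.78 against 1.72 to 2.05). That overlap came from 1 EYA array each, E728Q replicate 2 for actin (1.62) and wild-type EYA replicate 2 for GAPDH (1.72). All other EYA arrays were above both control arrays for these genes too. The probe set for eya read 991 and 918 on the control arrays, 916 and 915 on the wild-type EYA arrays, 1240 and 1554 on the D493N arrays and 1386 and 1140 on the E728Q arrays. The sources used here do not say whether it covers the transgene. Neuron markers were not called in any comparison with control (4 of 5 measured). Photoreceptor markers were bright, and of 3 measured inaD was called higher with E728Q. The D493N arrays stood apart from each other in tissue markers. Summed photoreceptor signal was 34123 on D493N replicate 1 and 47324 on replicate 2 (38312 to 44840 on the other arrays), and summed muscle signal was 12127 and 24920 (19094 to 23063 on the other arrays). The part of these tissues in the results was not tested.

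Sod3, the extracellular copper-zinc superoxide dismutase, gave the largest differences among these genes, and its probe sets moved in opposite directions. Probe set 1622906_at read 68.4 and 51.7 on the control arrays, 664 and 696 on the wild-type EYA arrays, 151 and 287 on the D493N arrays and 330.0 and 299 on the E728Q arrays. All 6 EYA arrays were above both control arrays, wild-type EYA was highest, and no pair of groups overlapped. Probe set 1636961_a_at read 2563 and 2345 on the control arrays, 1547 and 1580.5 on the wild-type EYA arrays, 1148 and 1370 on the D493N arrays and 1936 and 2064 on the E728Q arrays. Here all 6 EYA arrays were below both control arrays, D493N was lowest, and again no pair of groups overlapped. Over all tested probe sets, all 6 EYA arrays were above both controls for 18.0% and below both for 18.4%, so such patterns are common on this array.

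**Figure D1:**
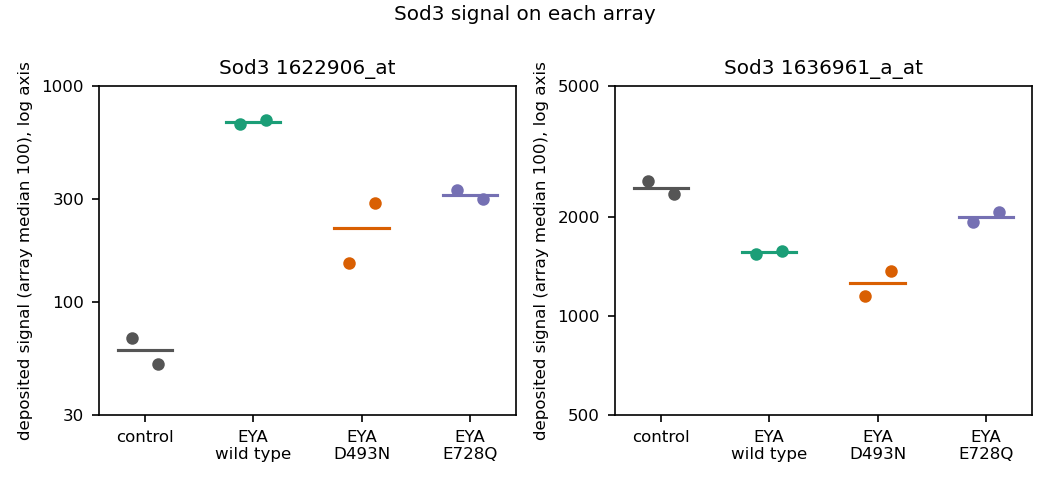
Deposited signal (log axis, array median 100) of the 2 Sod3 probe sets on each of the 8 arrays. Points are arrays and bars are group means of 2 arrays. The EYA arrays lie above the control arrays for 1622906_at (151 to 696 against 51.7 and 68.4) and below them for 1636961_a_at (1148 to 2064 against 2345 and 2563).

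The 1622906_at signal rose in every EYA group. Mean signals were 60.04 ± 11.9 (SD, n = 2) in control, 679.7 ± 22.5 (SD, n = 2) in the wild-type group, 219 ± 96.3 (SD, n = 2) in the D493N group and 315 ± 21.8 (SD, n = 2) in the E728Q group. Wild-type EYA differed from control by 3.19 (SE 0.25) in log2 fold change, with an adjusted p of 4.13e-05 in limma. It was 1.54 (SE 0.25, adjusted p = 0.00177, limma) with D493N and 2.09 (SE 0.25, adjusted p = 0.00041, limma) with E728Q. These are differences of log2(signal + 17.5), a scale that understates changes from low signals such as the control level here. All 3 calls held under each of the 16 alternatives run, with log2 fold changes of 2.93 to 3.35, 1.12 to 1.96 and 1.87 to 2.24. The size with D493N depended on the array, at 1.96 when D493N replicate 1 was left out and 1.12 when D493N replicate 2 was.

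The 1636961_a_at signal fell in the wild-type and D493N groups. Its mean was 2454 ± 154 (SD, n = 2) in control, 1564 ± 23.3 (SD, n = 2) with wild-type EYA, 1259 ± 157 (SD, n = 2) with D493N and 2000.4 ± 90.5 (SD, n = 2) with E728Q. The log2 fold change was -0.59 (SE 0.096, adjusted p = 0.00235, limma) with wild-type EYA and -1.01 (SE 0.096, adjusted p = 9.99e-05, limma) with D493N, and both calls held under all 16 alternatives. With E728Q it was -0.30 (SE 0.096, adjusted p = 0.0503, limma), just outside the threshold, with a 95% interval of -0.52 to -0.09. It was called lower under 6 of the 16 alternatives, and its log2 fold change over all 16 was -0.36 to -0.25. The call came with the replicate block (adjusted p = 0.0449, limma), the pseudocount of 35.1 and a filter keeping the top 40%. It also came with only the groups compared and when D493N replicate 1 or 2 was left out.

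**Figure D2:**
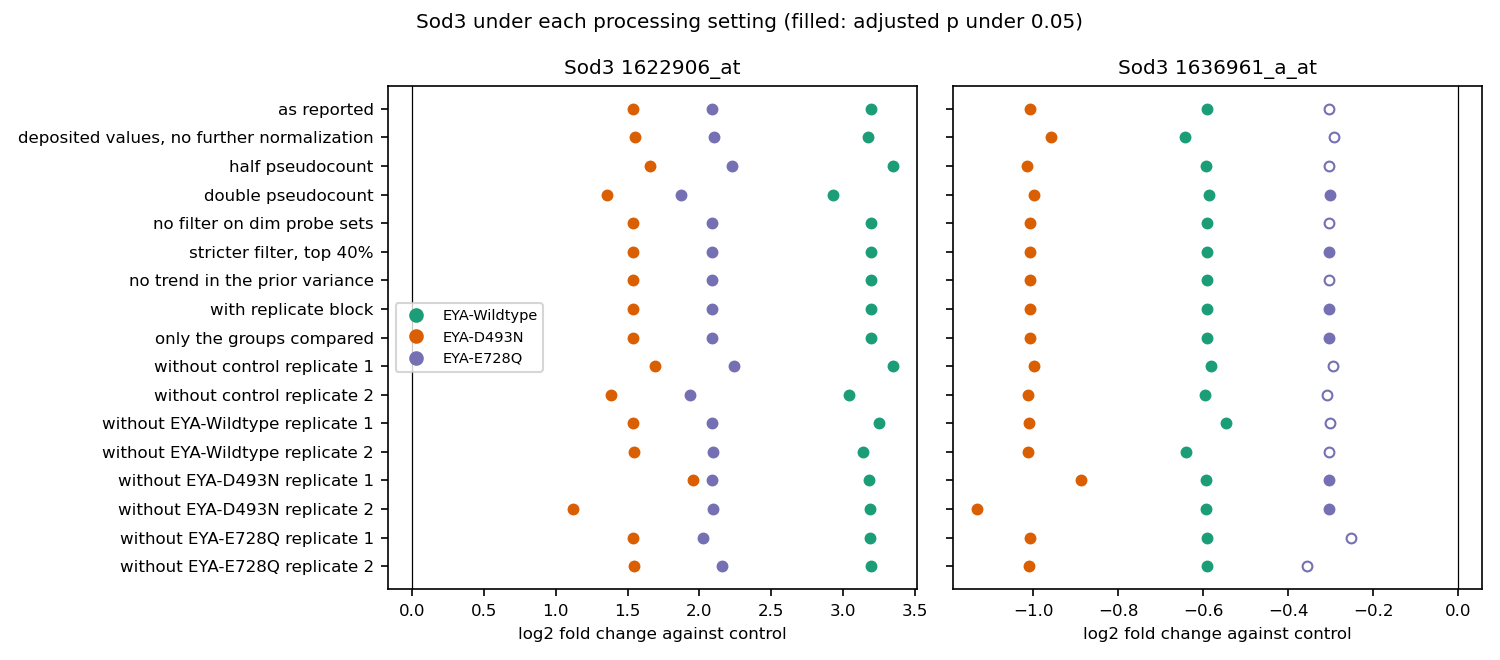
log2 fold change against control of the 2 Sod3 probe sets in each EYA group, as reported and under 16 other settings. Filled points passed an adjusted p of 0.05. No point crosses 0, and only 1636961_a_at with E728Q moves across the threshold.

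Opposite calls for probe sets of a single gene were rare. Among the 749 genes with several tested probe sets, calls in both directions were found for 5 genes (0.668%) in the wild-type group, 10 (1.34%) in the D493N group and 11 (1.47%) in the E728Q group. Sod3 was among them for wild-type EYA and D493N. Ptp10D and tutl, named after their values were seen, were the other genes with opposite calls in both of these comparisons. The Sod3 probe sets were set apart because they were already known to disagree in these data, so these shares are no test of Sod3. RefSeq lists 5 transcripts of Sod3, and in the array maker's naming an _a_at probe set matches several transcripts of a gene. The sources used here do not say which transcripts each Sod3 probe set reads, and no other annotated gene overlaps Sod3 in Release 6 plus ISO1 MT. Across the 8 arrays the probe sets correlated with r = -0.44 on the log2 scale, a description of arrays that fall into 4 groups. The eIF-4a ratio was higher on all EYA arrays, and its part in this pattern was not tested. That ratio was 2.89 and 3.23 on the wild-type EYA arrays, 3.02 and 4.05 on the D493N arrays and 2.80 and 2.87 on the E728Q arrays.

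Sod2, the mitochondrial manganese superoxide dismutase, rose with E728Q and did not pass the test in the other comparisons with control, and no difference between EYA groups was called for it. Signals were 5510 and 5544 on the control arrays, 6662 and 5494 on the wild-type EYA arrays, 5746 and 7061 on the D493N arrays and 6559 and 6573 on the E728Q arrays. The replicates of control and of E728Q lay close together, while those of wild-type EYA straddled the control values. The log2 fold change was 0.32 (SE 0.090, adjusted p = 0.0327, limma) with E728Q, 0.26 (adjusted p = 0.0722) with wild-type EYA and 0.22 (adjusted p = 0.0995) with D493N. The E728Q call was lost under 7 of the 16 alternatives. These were leaving out control replicate 1 or 2 or E728Q replicate 1 or 2, deposited values (adjusted p = 0.194, limma), no filter and no variance trend. With 1 array left out at a time the E728Q value ranged from 0.26 to 0.38. Conversely, Sod2 was called with wild-type EYA without D493N replicate 1 (0.021) or 2 (0.0217), and with D493N without D493N replicate 1 (0.32, adjusted p = 0.022), against 0.13 without D493N replicate 2 (adjusted p = 0.312).

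Cat encodes the catalase that breaks down hydrogen peroxide. Its probe set read 5834 and 5560.3 on the control arrays, 4892 and 4242 on the wild-type EYA arrays, 5141 and 4190.3 on the D493N arrays and 4782 and 4667 on the E728Q arrays. All EYA arrays were below both control arrays, but the log2 fold changes of -0.19, -0.26 and -0.21 did not pass the test (adjusted p = 0.271, 0.109 and 0.213, limma). The 95% intervals were -0.43 to 0.059, -0.51 to -0.016 and -0.46 to 0.038. Cat was called lower with D493N without D493N replicate 1 (log2 fold change -0.45, adjusted p = 0.00114), and was at -0.079 without D493N replicate 2 (adjusted p = 0.419). Without D493N replicate 1 or 2, the wild-type (adjusted p = 0.029 and 0.0297) and E728Q (0.0177 and 0.018) differences were called too.

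Trx-2, a cytosolic thioredoxin that reduces peroxiredoxins, differed least from control. It read 7239.7 and 7131 on the control arrays, 7126 and 6873 on the wild-type EYA arrays, 8109 and 7173 on the D493N arrays and 7224 and 6790.3 on the E728Q arrays. The log2 fold changes were 0.10, 0.14 and 0.041 (adjusted p = 0.522, 0.349 and 0.818, limma), with 95% intervals of -0.12 to 0.33, -0.09 to 0.37 and -0.19 to 0.27. The sign depends on the scaling, because with deposited values it was -0.038 with wild-type EYA and -0.037 with E728Q. With D493N the value was 0.30 and called without D493N replicate 2 (adjusted p = 0.00546), and -0.027 without D493N replicate 1. The _s_at suffix of its probe set, shared by those of Keap1 and a cnc probe set, marks probes that can match transcripts of other genes.

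**Figure D3:**
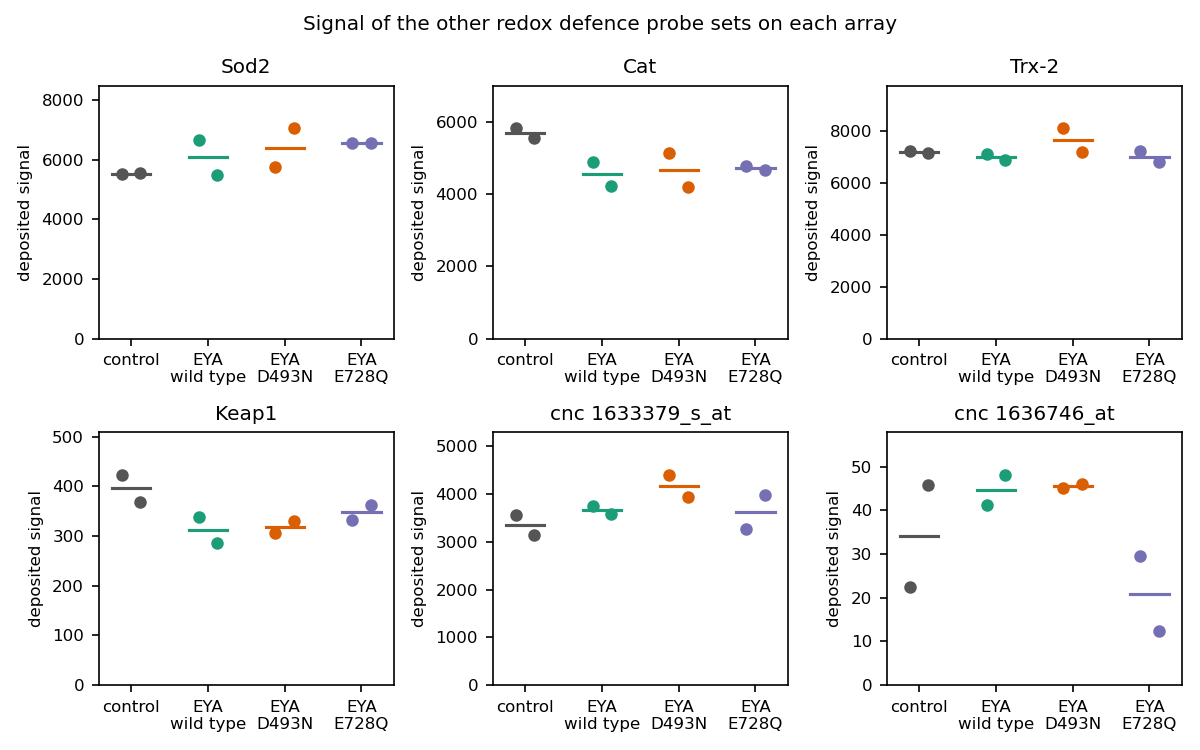
Deposited signal (linear axis from 0) of the probe sets for Sod2, Cat, Trx-2, Keap1 and cnc on each of the 8 arrays. Points are arrays and bars are group means of 2 arrays. Cat (4190.3 to 5141) and Keap1 (287 to 363) lie below both control arrays on all EYA arrays, and cnc 1636746_at stays between 12.3 and 48.2 on the whole set.

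Keap1, the adaptor that holds CncC inactive, read 424 and 368 on the control arrays, 338 and 287 on the wild-type EYA arrays, 307 and 330.1 on the D493N arrays and 333 and 363 on the E728Q arrays. Again no EYA array reached the lower control array, yet the log2 fold changes of -0.31, -0.33 and -0.19 did not pass the test (adjusted p = 0.106, 0.0751 and 0.323, limma). None of the 16 alternatives called Keap1 in these comparisons, and the lowest adjusted p was 0.0663, with D493N.

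The cnc gene has 2 probe sets, of which 1633379_s_at was tested. It read 3572 and 3141 on the control arrays, 3743 and 3592 on the wild-type EYA arrays, 4409 and 3930.1 on the D493N arrays and 3263 and 3982 on the E728Q arrays. The wild-type and D493N arrays were above both control arrays, and of the E728Q arrays 1 lay between the control values and 1 above them. The log2 fold changes were 0.20, 0.30 and 0.10 (adjusted p = 0.268, 0.0921 and 0.588, limma). With D493N it was 0.42 and called without D493N replicate 2 (adjusted p = 0.0195), and 0.17 without D493N replicate 1 (adjusted p = 0.310). The other probe set, 1636746_at, had signals of 12.3 to 48.2, each EYA group overlapped control, and its mean was below the level needed for testing. With no filter its log2 fold changes were 0.31, 0.30 and -0.44 (adjusted p = 0.707, 0.692 and 0.560, limma). RefSeq places Irk1, CG46310 and fzo over parts of cnc, and the sources used here do not say which of these the cnc probe sets match.

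**Figure D4:**
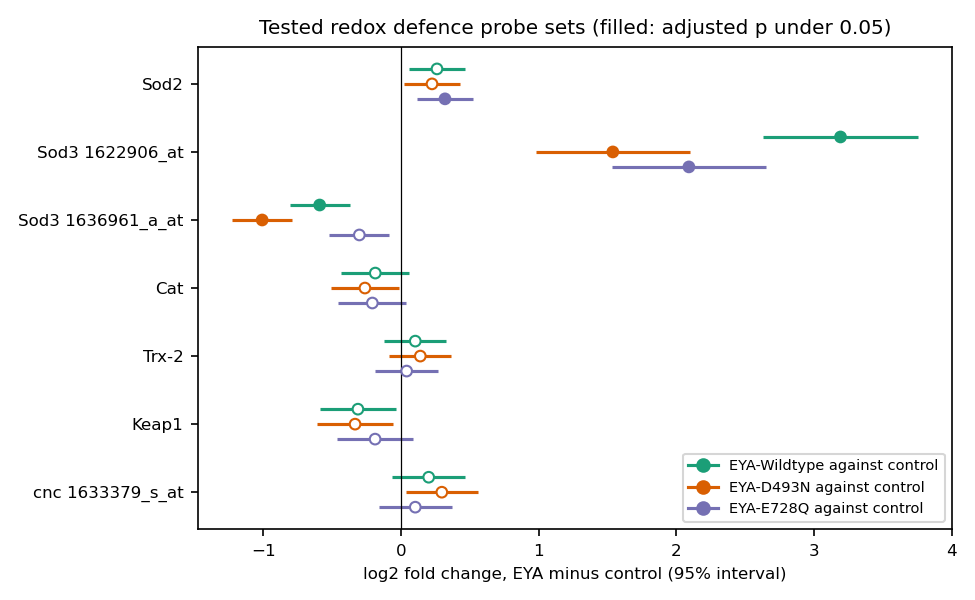
log2 fold change (EYA minus control) of the 7 tested probe sets, with 95% intervals from the fit over all 8 arrays. Filled points passed an adjusted p of 0.05. Sod3 1622906_at reaches 3.19, Sod3 1636961_a_at reaches -1.01, and the other probe sets lie between -0.33 and 0.32.

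Counted together, 2 of the 7 tested probe sets were called with wild-type EYA (1 higher, 1 lower), both of Sod3. The share over all tested probe sets was 22.3%, with 11.4% higher and 10.9% lower. With D493N the count was also 2 of 7, again the Sod3 probe sets, beside 27.9% of all (14.0% higher, 13.9% lower). With E728Q it was 2 of 7, Sod3 1622906_at and Sod2, both higher, beside 23.5% of all (11.8% higher, 11.7% lower). These counts are near the background and say nothing particular about the group. Deposited values did not overlap with control for 6, 6 and 5 of the 7 probe sets, beside 62.8%, 59.4% and 62.2% of all. Calls in all 3 comparisons were made for 15.6% of all tested probe sets, and among these 7 only for Sod3 1622906_at. The 3 comparisons share their control arrays and are not independent of each other.

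Direct comparisons of the EYA groups ask whether the response differs between the transgenes. Mean signal of the eya probe set, which may not cover the transgene, was 915 in the wild-type group, 1397 with D493N and 1263 with E728Q. Against control its log2 fold changes were -0.04, 0.46 and 0.35 (adjusted p = 0.855, 0.0234 and 0.0707, limma), so it was called higher with D493N. No difference between EYA groups was called for it (adjusted p from 0.108 to 0.767, limma). Both mutant groups nevertheless lay above wild-type EYA without overlap. The log2 difference from wild-type EYA was 0.50 for D493N (95% interval 0.22 to 0.78) and 0.40 for E728Q (95% interval 0.12 to 0.67). The part of phosphatase activity in the differences below, as against transgene level or fly line, was not tested. The Sod3 probe set 1622906_at was lower with D493N than with wild-type EYA by a log2 difference of -1.65 (SE 0.25, adjusted p = 0.0196, limma), where 1.15% of all tested probe sets were called and 0.622% were lower. That call was lost without wild-type replicate 1 (adjusted p = 0.167) or 2 (0.215), without E728Q replicate 1 (0.0514) or 2 (0.0507), with only these groups in the fit (0.125) and with no trend in the prior variance (0.0865). Against wild-type EYA the E728Q difference was -1.10 (95% interval -1.66 to -0.54, adjusted p = 0.111), where 0.710% of all were called. It became a call without D493N replicate 1 (adjusted p = 0.00503) or 2 (0.00609), and with only these groups in the fit (0.00272).

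Between the phosphatase mutants, the Sod3 probe set 1636961_a_at was higher with E728Q than with D493N by 0.71 on the log2 scale (SE 0.096, adjusted p = 0.0307, limma), where 0.169% of all tested probe sets were called and 0.0799% were higher. That call was lost without any 1 of the control, wild-type or E728Q arrays (adjusted p from 0.107 to 0.218), while the log2 difference stayed between 0.65 and 0.76. It was also lost with deposited values (adjusted p = 0.0501), with no trend in the prior variance (0.192) and with only these groups in the fit (0.393). Sod3 1622906_at differed by 0.55 (95% interval -0.01 to 1.11, adjusted p = 0.388), and was called without D493N replicate 2 (0.97, adjusted p = 0.0121) but was at 0.13 without D493N replicate 1 (adjusted p = 0.793). Trx-2 was called lower in E728Q than in D493N without D493N replicate 2 (-0.26, adjusted p = 0.0342). Sod3 1636961_a_at in D493N against wild type was -0.42 (adjusted p = 0.0889), and was called without D493N replicate 2 (-0.54, adjusted p = 0.00497). The other 5 tested probe sets differed between EYA groups by -0.19 to 0.15, with adjusted p of at least 0.529.

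By profile over the 8 arrays, the single-symbol probe sets most like Sod3 1622906_at were those of GILT3 (Pearson r = 0.978, n = 8 arrays), CG42784 (0.977) and Grip75 (0.970). Their log2 fold changes against control were smaller, at 1.05, 0.72 and 0.75 with wild-type EYA. Sod3 1636961_a_at was matched most closely by Tango9 (r = 0.984), Strump (0.983) and ND-SGDH (0.980), which had -0.36, -0.61 and -0.50 with D493N. Outside Sod3 the largest difference against control was that of Keap1, whose nearest profiles were Hacd2 (r = 0.984), CARPA (0.974) and TyrRS (0.972). These correlations describe arrays that share 4 groups and a common scaling.

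Around these members, 66 further genes of redox metabolism were listed, of which 56 had a single-symbol probe set and 51 were tested. With wild-type EYA 7 were higher and 12 lower (37.3% called, against 22.3% of all tested probe sets). With D493N 6 were higher and 14 lower (39.2%, against 27.9%), and with E728Q 4 were higher and 13 lower (33.3%, against 23.5%). The lists were chosen with earlier results of these data known, and each gene is counted once, by its brightest tested probe set. These shares are therefore no test of an excess over all tested probe sets. The median log2 fold change of the 51 was -0.11, -0.17 and -0.12, where that of all tested probe sets was -0.029, -0.021 and -0.0044. Of the 51 genes, 4 were higher and 8 lower in all 3 comparisons, and 26 were called in none. Txl, MsrA, GstD2, Men and MTF-1 were called in all 3 under each of the 16 alternatives.

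**Figure D5:**
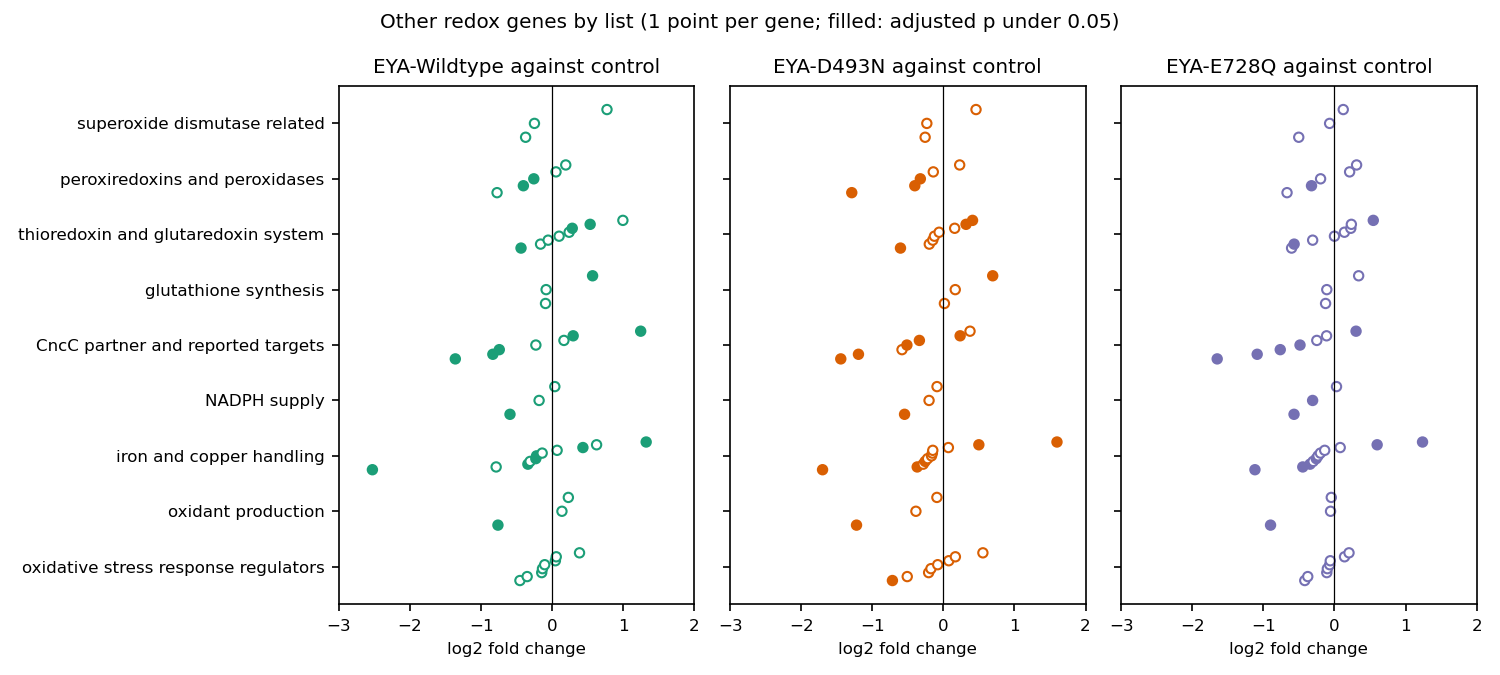
log2 fold change against control of 51 further redox genes, 1 point per gene, by list and EYA group. Filled points passed an adjusted p of 0.05. MTF-1 is the highest called gene with D493N (1.60) and E728Q (1.24), and MtnB is the lowest with wild-type EYA (-2.53). MtnB is dim and passed the brightness filter mainly through the control arrays.

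None of the 3 genes related to superoxide dismutase was called against control in limma, and at an unadjusted p under 0.05 only Ccs with wild-type EYA and Sodq with E728Q (log2 fold change -0.50) passed. Ccs, the copper chaperone for Sod1, had log2 fold changes of 0.77, 0.46 and 0.12 (adjusted p = 0.0661, 0.233 and 0.786, limma). Among 5 tested peroxiredoxin and peroxidase genes none was called higher, and 2, 3 and 1 were called lower. Their highest log2 fold changes were 0.19, 0.23 and 0.31. That with D493N was of Prx3, named after its values were seen (95% interval 0.05 to 0.41, adjusted p = 0.0614, limma). Shares over all tested probe sets were 11.4%, 14.0% and 11.8% called higher and 10.9%, 13.9% and 11.7% called lower. Gtpx, a glutathione peroxidase homologue, fell from 6322 and 5824 in control to 4851 and 4431, 4550 and 4493, and 4564 and 4777. Its log2 fold changes were -0.26, -0.40 and -0.32, and leaving out 1 array at a time lost the wild-type call (adjusted p from 0.0856 to 0.134 without either control or wild-type array) and the E728Q call (0.0639 without control replicate 1 and 0.0661 without E728Q replicate 1). Irc, a secreted catalase of the gut immune response, fell with wild-type EYA (-0.41) and D493N (-0.32), the latter not called if control replicate 1 (adjusted p = 0.0842) or 2 (0.0516) was left out. Prx6c, a peroxiredoxin, fell with D493N (-1.29), where its replicates were 662 and 1349.6 against 2321 and 2155 in control. Its D493N value was -0.78 when D493N replicate 1 was left out.

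In the thioredoxin and glutaredoxin system, 2 of 8 tested genes were called higher and 1 lower in each of the wild-type and D493N groups. With E728Q 1 was called higher and 1 lower. Of all tested probe sets 22.3%, 27.9% and 23.5% were called. MsrA, which repairs oxidized methionine, rose by 0.53, 0.41 and 0.55 on the log2 scale, from 1206 and 1169 in control to at least 1632 on each EYA array. Txl, a thioredoxin-like gene, had log2 fold changes of -0.44, -0.60 and -0.57, and its highest EYA array (2194) was below the lower control array (2882). Trxr1, the reductase that recharges thioredoxin, rose with wild-type EYA (0.28, adjusted p = 0.0458, limma) and D493N (0.32, adjusted p = 0.0232, limma). Without control replicate 1 or 2 both calls were lost (adjusted p = 0.229 and 0.131, and 0.141 and 0.0796). The D493N value was 0.19 without D493N replicate 1 and 0.45 without replicate 2, and its call was also lost with no variance trend (0.0726) and with only the groups compared (0.0875). The wild-type call was also lost without wild-type replicate 1 (0.196) or 2 (0.145) or E728Q replicate 1 (0.0764) or 2 (0.0756), and with the replicate block (0.058).

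Glutathione synthesis and turnover had 3 tested genes. Gclc, the catalytic subunit of the first enzyme of synthesis, had -0.086, 0.015 and -0.12 (adjusted p = 0.554, 0.925 and 0.37, limma). Its modifier subunit gene Gclm had -0.095, 0.17 and -0.11 (adjusted p = 0.798, 0.6 and 0.761). Ggt-1, a glutathione-degrading transpeptidase gene, rose with wild-type EYA (0.57) and D493N (0.69). Without control replicate 1 these became 0.30 (adjusted p = 0.202) and 0.43 (0.0673), and the wild-type call was lost without wild-type replicate 1 (0.105) or 2 (0.173) or E728Q replicate 1 (0.0557) or 2 (0.0559).

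The CncC partner maf-S and reported CncC target genes were listed together. Of 7 tested, 2 were called higher and 3 lower in the wild-type group, and 1 higher and 4 lower in each mutant group. Over all tested probe sets 22.3%, 27.9% and 23.5% were called. The genes called higher were maf-S and Cyp6a2 with wild-type EYA and maf-S alone with each mutant. The called target genes thus all fell in the mutant groups, and went both ways with wild-type EYA. GstD2, a glutathione transferase gene, fell from 1068 and 1164 in control to 411 and 428, 492.9 and 347, and 314 and 388, with log2 fold changes of -1.36, -1.44 and -1.65. Cyp6a2, a cytochrome P450 gene, read 539 and 539 on the control arrays, 1458 and 1141 on the wild-type EYA arrays, 449 and 335 on the D493N arrays and 479 and 458 on the E728Q arrays. It was higher than control with wild-type EYA (1.24, adjusted p = 0.000365, limma) and lower with D493N (-0.51, adjusted p = 0.0272, limma), while E728Q was at -0.25 (adjusted p = 0.263). Leaving out control replicate 1 (adjusted p = 0.0931) or 2 (0.131) or D493N replicate 2 (0.0889, at -0.33) ended the D493N call.

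The P450 gene Cyp6a8 fell in all 3 comparisons (-0.84, -1.19 and -0.76). Its wild-type call was lost without control replicate 1 or 2 or wild-type replicate 2 (adjusted p = 0.0678, 0.0743 and 0.0928), and its E728Q call without any 1 control or E728Q array (0.0674 to 0.0957). GstE1 fell with wild-type EYA (-0.74) and E728Q (-1.09), the latter not called if control replicate 1 was left out (adjusted p = 0.0534). The wild-type call was lost without any 1 control, wild-type or E728Q array (0.0543 to 0.209). Named after their values were seen, maf-S rose in all 3 comparisons (0.29, 0.24 and 0.30), and GstD1 fell with D493N (-0.34) and E728Q (-0.48); the alternatives were not run for genes named in this way.

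In iron and copper handling, 2 of 11 tested genes were called higher in every comparison and 4, 3 and 4 lower. Beside this, 11.4%, 14.0% and 11.8% of all tested probe sets were called higher and 10.9%, 13.9% and 11.7% lower. MTF-1, the metal-responsive transcription factor, rose from 664 and 612 in control to 1708 and 1528, 2144 and 2044, and 1434 and 1761. MTF-1 had log2 fold changes of 1.32 (SE 0.11), 1.60 (SE 0.11) and 1.24 (SE 0.11), and no EYA array came near the control range. MtnB, a metallothionein gene that MTF-1 is known to activate, read 114 and 160.3 on the control arrays, 4.20 and 14.3 on the wild-type EYA arrays, 27.5 and 33.6 on the D493N arrays and 47.6 and 61.0 on the E728Q arrays. Its log2 fold change of -2.53 in the wild-type group depends on the pseudocount (-3.04 with 8.76 and -1.95 with 35.1), because these signals lie below it. MtnB passed the brightness filter, on a mean of 57.8 over all arrays, mainly through control (mean 137). Its wild-type and D493N means (9.27 and 30.6) were below the lowest mean tested (38.1). The filter thus favoured a call of lower for this probe set. The MtnB call with D493N (-1.70) was lost without control replicate 2 (adjusted p = 0.0616). That with E728Q (-1.12) was lost without any 1 control or E728Q array (0.0864 to 0.254), and the value was -0.88 without control replicate 2.

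On its brightest probe set Tsf1, the iron carrier transferrin, rose by 0.43, 0.50 and 0.60 on the log2 scale. That call was lost with deposited values for wild-type EYA (adjusted p = 0.0634, limma). Tsf1 has 3 probe sets, and no other list gene called higher has more than 1. With the dimmest tested probe set of each gene, 6, 5 and 3 list genes were called higher, against 7, 6 and 4 as reported. The dimmest tested Tsf1 probe set was thus not called higher in any comparison. With those dimmest probe sets 13, 14 and 14 list genes were called lower, against 12, 14 and 13 as reported. Which gene made that difference was not looked up. ATP7, a copper transporter gene, fell with D493N (-0.37) and E728Q (-0.45). The D493N call was lost without any 1 control, wild-type or D493N array (adjusted p from 0.0576 to 0.167), and that with E728Q if control replicate 1 (0.11) or 2 (0.0679) or E728Q replicate 1 (0.122) was left out. Named after their values were seen, Fer1HCH, a ferritin subunit gene, fell in all 3 comparisons (-0.23, -0.26 and -0.26), Fer2LCH (-0.22) and Mvl (-0.34) fell with wild-type EYA, and Ctr1A (-0.34) fell with E728Q.

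Among the remaining lists, Men, a malic enzyme that supplies NADPH, fell by 0.59, 0.55 and 0.57 on the log2 scale. Its 6 EYA arrays read 3431 to 4425, below the control values of 6493 and 5892. Idh, another source of NADPH, fell with E728Q (-0.31), a call that ended when control replicate 1 (adjusted p = 0.0944) or 2 (0.0784) or E728Q replicate 1 (0.118) was left out. Of 3 tested genes of oxidant production, mol, which encodes a maturation factor for the oxidase Duox, fell in all comparisons (-0.76, -1.22 and -0.90), with the wild-type call lost without wild-type replicate 1 (adjusted p = 0.0529). Shares called over all tested probe sets were 22.3%, 27.9% and 23.5%. Of 8 oxidative stress regulators, dj-1beta fell with D493N (-0.72), on signals of 1022 and 630 against 1343 and 1211 in control, and no other was called. That call ended when control replicate 1 (adjusted p = 0.1) or 2 (0.0803) was left out, and its value ranged with the array, at -1.05 when D493N replicate 1 was left out and -0.38 when D493N replicate 2 was.

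Some differences of these list genes that were not calls became calls when an array was left out. Without D493N replicate 1 or 2, Prx6c was called lower in the wild-type group (adjusted p = 0.000143 and 0.000147) and with E728Q (0.00036 and 0.000369). The same held for dj-1beta with wild-type EYA (0.0126 and 0.0121) and E728Q (0.00881 and 0.00848), for Idh with wild-type EYA (0.03 and 0.0303), and, in the higher direction, for Trxr1 with E728Q (0.00675 and 0.00675). Without D493N replicate 1 alone, GstE1 (-0.95, adjusted p = 0.000765) and Idh (-0.28, adjusted p = 0.0133) were called with D493N, against -0.21 and -0.13 without D493N replicate 2, and Irc (0.0496) with E728Q, and without control replicate 2 Ggt-1 was called with E728Q (0.0237).

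Fat body markers moved with the groups as well. Of 6, 1 was higher and 4 lower with wild-type EYA and with E728Q, and 1 higher and 3 lower with D493N. Their summed signal was 63822 to 68316 in control, 50269 to 58873 with wild-type EYA, 59398 to 67188 with D493N and 54350 to 54859 with E728Q. Among 4 measured glial markers 1 was higher in each comparison and 2 lower with D493N, no muscle marker was called, and 1 of 5 midgut markers was lower with wild-type EYA and D493N. Summed midgut signal was 1054 on E728Q replicate 2 and 180.3 to 439 on the other arrays. Of 5 haemocyte markers 1 was higher and 1 lower in each comparison, with summed signals of 1980 to 2243 over all arrays. Markers of female germline and of testis and accessory gland stayed at summed signals of at most 363 and 186. In whole-head RNA, fewer cells of a type and less RNA per cell cannot be told apart, and the part of fat body, glia, midgut and haemocytes in the redox results was not tested.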

How the data were processed

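The table the authors deposited holds a linear intensity for each probe set on each array. Per the submitters' processing notes GCOS, the Affymetrix operating software, was used. The sources used here give neither its version nor its background correction and summary method. Of 18952 probe sets, 183 Affymetrix controls were left out of tests. The spread of the trimmed means (11.3%) exceeded 5%, so arrays were quantile normalized. Values were taken as log2(signal + 17.5), where 17.5 is the 25th percentile of all values. Tests covered the brightest 60% by mean signal (11261 of 18769, lowest mean 38.1). All 8 arrays entered a single limma 3.58.1 fit (R 4.3.3) with a coefficient per group and a variance trend, with 4 residual and 4.75 prior degrees of freedom. The 6 comparisons used two-sided tests. P-values were adjusted by the Benjamini-Hochberg method across all tested probe sets, with calls at adjusted p under 0.05. Printed signals, means and SDs are deposited values, and arrays, 2 per group, limit the precision. The fit was tested on simulated data.

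Symbols came from the array annotation, updated by gene identifier from Release 6 plus ISO1 MT. The genes named are all members, up to 4 called genes of each list by largest change, and the 3 profiles of highest r; others are marked. For listed genes the tested probe set of highest mean was used, and calls were also counted with that of lowest mean. Members and lists were chosen with earlier results of these data known. Same-numbered replicates did not deviate together (r from -0.14 to 0.09 over 6 group pairs), so no block was used. The files give no slide or scan date. Alternatives were deposited values, pseudocounts of 8.76 and 35.1, no filter, the top 40%, no variance trend, a replicate block, only the groups compared, and each array left out in turn.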

Additional observations from a re-analysis of the deposited data

Results flagged for a closer look

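Groups of 2 arrays are too small to test single arrays for standing apart. A direct comparison of EYA groups passed the test for 2 probe sets of Sod3 and for the P450 gene Cyp6a2. Sod3 1622906_at differed between D493N and wild-type EYA by -1.65 on the log2 scale (adjusted p = 0.0196, limma), a call lost under 6 of the 16 alternatives. Sod3 1636961_a_at differed between E728Q and D493N by 0.71 (adjusted p = 0.0307, limma), a call lost under 9 of the 16. Cyp6a2 was lower with D493N than with wild-type EYA by -1.76 (adjusted p = 0.000858, limma) and lower with E728Q than with wild-type EYA by -1.49 (adjusted p = 0.00301, limma). For Cyp6a2 the alternatives were added after its calls were seen. Its D493N difference stayed called (-1.94 to -1.57), and its E728Q difference lost the call without wild-type replicate 1 and without E728Q replicate 2.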

How the results depend on the processing

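With 2 arrays per group, counts depended on which arrays set the shared spread. Leaving out 1 array at a time gave 1413 to 3423 probe sets in wild-type EYA against control (2516 as reported), 1868 to 3731 in D493N (3147) and 1483 to 3516 in E728Q (2648). Between EYA groups it gave 17 to 1021 (130) for D493N against wild type, 11 to 322 (80) for E728Q against wild type and 4 to 1096 (19) for E728Q against D493N. Counts of called members were 2 to 4, 2 to 4 and 1 to 4 against control (2 each), and 0 to 2 (1), 0 to 1 (0) and 0 to 3 (1) between EYA groups. Further redox genes called were 10 to 29 (19), 12 to 26 (20) and 9 to 27 (17). A group reduced to 1 array borrows its variance from the remaining groups. With only the groups compared, members called were 5 with wild-type EYA and 4 with E728Q, and 0, 1 and 0 between EYA groups, redox genes with wild-type EYA were 29, and probe sets between EYA groups were 17, 230 and 3. With no variance trend these last counts were 27, 23 and 7, redox genes with wild-type EYA 12, and called members 1 with E728Q against control and 0 in D493N against wild type and in E728Q against D493N. With deposited values 1 member was called with E728Q and 0 in E728Q against D493N. With no filter 1 member was called with E728Q, and 46 probe sets in E728Q against wild type. With the replicate block, where numbers did not pair the samples, 86 probe sets were called in D493N against wild type and 46 in E728Q against wild type.

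Of the log2 fold changes of single genes under other settings, 1434 kept direction and side of the threshold, 106 lost the call, 51 gained it and 22 changed sign, none of the last called as reported. With deposited values the sign changed for Trx-2 in wild-type EYA (-0.038) and E728Q (-0.037) against control, for Sod2 (0.074), Cat (0.027) and Keap1 (0.030) in D493N against wild type, and for Cat (0.052) and Trx-2 (0.0012) in E728Q against wild type. The other changes of sign came from leaving out 1 array. Against control, Trx-2 with D493N then ranged from -0.027 to 0.30 and cnc with E728Q from -0.061 to 0.27. In D493N against wild type, Sod2 ranged from -0.13 to 0.062, Cat from -0.26 to 0.11, Keap1 from -0.12 to 0.082, Trx-2 from -0.13 to 0.20 and cnc from -0.027 to 0.22. In E728Q against wild type, Sod2 ranged from -0.036 to 0.15, Cat from -0.078 to 0.035 and cnc from -0.26 to 0.065. In E728Q against D493N, Sod2 ranged from -0.0027 to 0.19, Cat from -0.13 to 0.24 and Trx-2 from -0.26 to 0.066. Causes were not tested, and dim signals such as those of MtnB limit the size of their fold changes.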
